A study of Homo sapiens with 7 samples.

Results

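Keratin genes were taken as the genes of the FPKM table whose symbol is KRT, a number and at most a letter from A to C, which gave 55 of 26175 genes. The cells were T47D/A1-2, made from T-47D, a luminal breast cancer line. Beyond the parental line they hold a luciferase reporter under the MMTV promoter in their genome and an excess of glucocorticoid receptor (GR) of rat origin. Every sample shared 1 condition, with growth in 10% serum followed by at least 24 hours in 5% serum stripped with charcoal and dextran, so no treated and untreated cells are compared. Steady-state RNA was measured by RNA-seq of poly-A RNA in 3 replicates, and initiation was mapped by Start-seq, which reads the 5' ends of short capped nascent RNA. The FPKM values are 1 merged value per gene over the 3 replicates, and the TSS positions come from Start-seq replicate 1 without read counts. No error between replicates can therefore be given for any value, depth is unknown, and comparisons between genes are descriptions without a test.

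Keratins are the intermediate filament proteins of epithelial cells. An acidic type I keratin and a basic type II keratin form an obligate heteropolymer, and the choice of partners differs between epithelia. KRT8 and KRT18 are the primary partners of simple epithelium, KRT7 and KRT19 join them in ducts and glands, KRT5 and KRT14 mark the basal layer, and other members build the cornified epidermis and the hair. In the breast, luminal cells are known for KRT8, KRT18 and KRT19 and basal cells for KRT5, KRT14 and KRT17. The genes lie in a pair of clusters, the type II genes with KRT18 on chromosome 12 and the remaining type I genes on chromosome 17.

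The line expressed the keratins of simple epithelium at high levels and most other keratins hardly at all. KRT8, a type II keratin, had an FPKM of 1142 and ranked 4 among the 26175 genes. KRT19, a small type I keratin without the usual tail domain, followed at 936 FPKM and rank 8, and KRT18, the type I partner of KRT8, had 555 FPKM and rank 36. These 3 genes made up 90.9% of the summed FPKM of all 55 keratins. KRT18 was 6.36-fold above the next keratin.

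A second tier held KRT80 at 87.3 FPKM, KRT23 at 84.7 and KRT7 at 60.7. KRT80 is a type II and KRT23 a type I epithelial keratin, and KRT7 is the type II keratin of glandular epithelium. KRT10, the type I keratin of the suprabasal epidermis, had 16.1 FPKM. The last members above 1 FPKM were KRT24 at 3.99, KRT222 at 3.91, KRT15 at 2.51, KRT81 at 1.19 and KRT86 at 1.10. KRT15 is a type I keratin of basal cells, and KRT81 and KRT86 are type II hair keratins. Neighbours in this order were close in 3 places, with ratios of 1.03 for KRT80 over KRT23, 1.02 for KRT24 over KRT222 and 1.08 for KRT81 over KRT86. Without replicate values it cannot be said whether these neighbours differ.

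In all, 12 of the 55 keratins had an FPKM of at least 1, whereas 46.9% of all genes of the table did. At a threshold of 10 FPKM there were 7 keratins, against 28.1% of all genes. A value of exactly 0 was listed for 22 keratins, against 30.1% of all genes. The median FPKM was 0.0110 over the keratins and 0.528 over all genes. The family thus held several of the most abundant transcripts together with a median below that of the table, and the 43 keratins under 1 FPKM summed to only 1.07 FPKM, or 0.0368% of the keratin total.

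**Figure D1:**
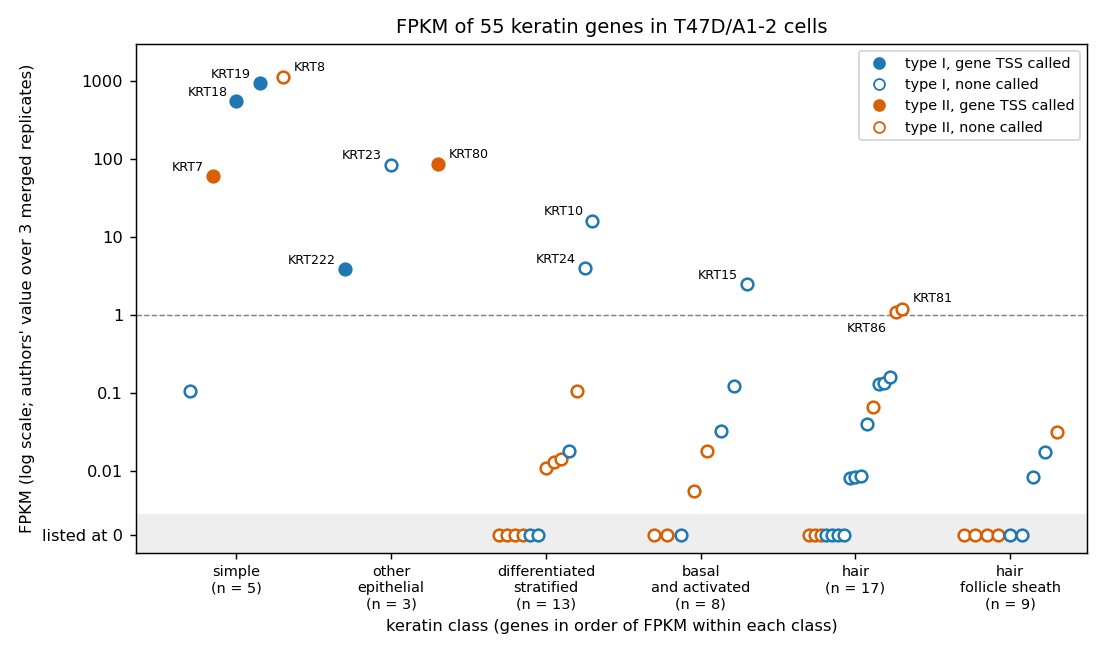
FPKM of the 55 keratin genes on a log axis, grouped by class and ordered by FPKM within each class, with 22 genes listed at 0 on the shaded strip. Each point is the authors' value over 3 merged replicates, colours give the keratin type and filled points have a called gene TSS on their strand; KRT8, KRT19 and KRT18 stand at 555 to 1142 FPKM, and the dashed line marks 1 FPKM.

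By class, 4 of the 5 simple epithelial keratins passed 1 FPKM. The exception was KRT20, a type I keratin of intestinal epithelium and urothelium, with 0.108 FPKM. All 3 members of a mixed epithelial class, KRT23, KRT80 and KRT222, passed 1 FPKM. Among the 13 keratins of differentiated stratified epithelium only KRT10 and KRT24 passed, and 6 were listed at 0. Of the 8 basal and activated keratins, KRT15 alone passed.

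KRT5 and KRT14, the defining partners of basal cells, were both listed at 0. KRT17 had 0.125 FPKM and KRT16 had 0.0323, both induced in activated keratinocytes. The 3 KRT6 genes, their type II counterparts, ranged from 0 to 0.0178 FPKM. Hair keratins had KRT81 and KRT86 as 2 of 17 above 1 FPKM, and the highest of the others was KRT40 at 0.162. None of the 9 keratins of the hair follicle sheath passed, with a highest value of 0.0317 FPKM for KRT75. KRT81, KRT83 and KRT86, the KRT6 genes, KRT33A and KRT33B, and KRT14, KRT16 and KRT17 are close in sequence, so that reads may be split between them. Values for those genes are uncertain in that respect.

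Type I members summed to 1603 FPKM and type II members to 1293, a ratio of 1.24. KRT8 was 2.06-fold above KRT18, its usual partner, whereas KRT18 and KRT19 together reached 1491 FPKM. KRT7 stood at 0.0648 of the level of KRT19. KRT10 was listed with 16.1 FPKM although KRT1 was listed at 0 and KRT2 at 0.0110, the type II keratins it joins in epidermis. KRT15 had 2.51 FPKM beside a basal partner, KRT5, listed at 0. KRT4 had 0.107 FPKM and KRT13, with which it forms filaments in the esophagus, was listed at 0. FPKM is scaled to transcript length, so these are levels per gene and not amounts of protein.

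Genes that share a locus limit some of these values. In the table, KRT8 and KRT18 share a locus that spans both genes, and KRT10 shares one with TMEM99, a gene on the opposite strand listed at 14.7 FPKM. The libraries were strand-specific, but whether Cufflinks was run with the strand is not given in the sources used here. Of 8 keratin pseudogenes listed in the table, 2 were above 0, with a highest value of 0.301 FPKM for KRT8P41.

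The labelled cell type was checked with markers that are not keratins. Over all genes of the table, 46.9% had at least 1 FPKM, the share beside which the counts below stand. All 12 luminal markers had at least 1 FPKM, and the highest were XBP1 at 461, GATA3 at 360 and MUC1 at 343. Of 10 basal and myoepithelial markers, 4 passed 1 FPKM, which is near the share over all genes. The highest was TAGLN at 8.04, while TP63, the basal transcription factor, had 0.517. Mesenchymal markers passed in 3 of 8 cases, COL1A1 at 8.82 FPKM, FN1 at 6.99 and TWIST1 at 3.74, with ZEB1 and ZEB2 listed at 0. Squamous markers passed in 3 of 9 cases, up to 2.98 FPKM. PTPRC, the pan-leukocyte marker CD45, had 0.0208 FPKM.

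Of 20 genes for desmosome and linker proteins, which anchor keratins at the cell border, 14 had at least 1 FPKM, against 46.9% of all genes. Their median was 20.3 FPKM. JUP, which encodes plakoglobin, had 442 FPKM, DSP, the desmoplakin that binds keratin filaments, had 74.3, and PKP3, a plakophilin, had 56.5. The desmosomal cadherins DSG2 and DSC2 of simple epithelium were listed at 33.7 and 6.70, whereas DSG1 and DSG3 of stratified epithelium were at 0. The other desmosomal cadherins on the list, DSC1, DSG4 and DSC3, had 0.339, 0.00370 and 0.00166 FPKM. Of the linkers, PPL and EVPL had 30.0 and 27.8 FPKM. Among 16 other intermediate filament genes, 7 passed 1 FPKM, which is near the share over all genes. The nuclear lamins LMNA at 248, LMNB1 at 63.1 and LMNB2 at 38.3 led them, and VIM, the vimentin gene of mesenchymal cells, had 0.864.

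Keratin-associated proteins embed keratins in the hair shaft. Only 1 of 93 such genes passed 1 FPKM, KRTAP3-1 at 9.06, against 46.9% of all genes, and 81 were listed at 0, against 30.1%. The next highest was KRTAP3-3 at 0.590. By the rule used for keratins in the next paragraph, 9 of the 93 had a gene TSS on their strand within 1000 nts. By that rule 47.9% of all genes with a known strand had one, and 14.0% of those under 1 FPKM. The 9 were KRTAP3-1 and 8 members of the KRTAP10 and KRTAP12 groups that were all listed at 0. The rule counts any gene TSS on that strand in or near the locus. Whether the calls at these 8 genes belong to them or to another gene was not analysed.

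Initiation was then examined at the same loci. Gene TSSs are initiation sites of annotated genes, each called at a single position in hg19. Within 1000 nts of the keratin loci, 6 gene TSSs had been called, near 7 genes. On the strand of the gene, 5 of the 55 keratins had a gene TSS: KRT7, KRT18, KRT19, KRT80 and KRT222. By the same rule, 47.9% of the 21813 genes with a known strand had one. Of the 12 keratins with at least 1 FPKM these were 5, against 80.3% of all genes at that level. At or above 50 FPKM, 4 of 6 keratins had a gene TSS, against 91.3% of all such genes. None of the 43 keratins under 1 FPKM had a gene TSS, against 14.0% of all genes under 1 FPKM.

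KRT8, the most abundant keratin, and KRT23 had no gene TSS on their strand. At or above 500 FPKM, 43 of 46 genes had one, and KRT8 was among the 3 without. The start of its MANE Select transcript, the reference transcript of the annotation, lay 44042 nts from the nearest gene TSS on either strand. KRT10, KRT24, KRT15, KRT81 and KRT86 were the other keratins at or above 1 FPKM without a call. The nearest gene TSS on the same strand lay 71482 nts from the annotated start of KRT23 and 9418 nts from that of KRT15, the latter being the gene TSS of KRT19. The calls needed 5 uniquely mapped reads at a position, within search windows around annotated mRNA starts. Read counts and unique mapping at these starts were not analysed here, and why they lack a call was not tested.

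The sequence around the gene TSS of KRT80 is shown because this call lay farthest from an annotated start among the 5 and held letters bound by AP-1 factors. It runs 5′ to 3′ on the strand of the gene, from -40 to the 10th base of the RNA in hg19. Capitals mark the bases at -1 and +1, with +1 the called position, and TGANTCA.
KRT80 (chr12:52586126-52586175, minus): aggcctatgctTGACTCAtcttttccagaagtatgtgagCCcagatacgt

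The gene TSSs of KRT18 and KRT19 were called exactly at the start of the MANE Select transcript, at positions 53342902 on chromosome 12 and 39684560 on chromosome 17. KRT222 was called at 38821434 on chromosome 17, 5 nts upstream of that start, and KRT7 at 52627001 on chromosome 12, 26 nts upstream. KRT80 was the exception, with a call at 52586135 on chromosome 12, 337 nts upstream of the annotated start. Only 5.67% of the 10391 gene TSSs lay 300 nts or more upstream of the nearest annotated start, and the median offset in either direction was 10 nts.

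On the strand of the gene, TATAA or TATAT starting between -35 and -24 was found at 1 of the 5 gene TSSs, that of KRT18 at -28, against 3.0% of all gene TSSs. The 9 letters ATAAAAGGC, picked only after the sequences were seen, lay at -28 of the KRT19 gene TSS. At KRT7 the same letters spanned the called position, starting at -2, so that they began at -28 of the annotated start instead. Between -40 and the 10th base of the RNA, 0.125% of all gene TSSs held them. A pyrimidine followed by a purine at -1 and +1, the usual initiator letters, was present at KRT7 and KRT19 alone of the 5, against 66.1% of all gene TSSs. TGANTCA, letters bound by AP-1 factors that read the same on both strands and were likewise picked after the sequences were seen, started at -29 of the KRT80 gene TSS and was not found within 100 nts upstream of the other 4, against 1.11% of all gene TSSs. GGGCGG, a GC box read on both strands, lay within 100 nts upstream at KRT7, KRT18 and KRT19, against 50.2% of all. CCAAT on either strand was found in that window at none of the 5, against 18.7% of all.

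GC content in the 100 nts around the gene TSS was 74.0% at KRT7, 71.0% at KRT19, 69.0% at KRT18, 57.0% at KRT222 and 54.0% at KRT80. Over all gene TSSs the mean was 67.2%, and 7.22% of them lay below KRT80. A window of 500 nts with at least 50% GC and an observed to expected CpG ratio above 0.6, the composition of a CpG island, was found at KRT7, KRT18 and KRT19. The ratio was 0.175 at KRT80 and 0.448 at KRT222. This composition was shared by 87.0% of all gene TSSs.

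Antisense initiation was then read at the 5 keratin gene TSSs, for each type of call. An upstream antisense TSS (uaTSS) is searched for up to 1000 nts upstream and a downstream antisense TSS (daTSS) up to 2000 nts downstream, each on the strand opposite to the gene. A uaTSS was called at KRT7, KRT18 and KRT19, that is at 3 of 5, against 53.1% of all gene TSSs. A daTSS was called at KRT7 and KRT80, that is at 2 of 5, against 28.4% of all. KRT7 carried both and KRT222 neither. These shares rest on 5 gene TSSs and were not tested against the rest.

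**Figure D2:**
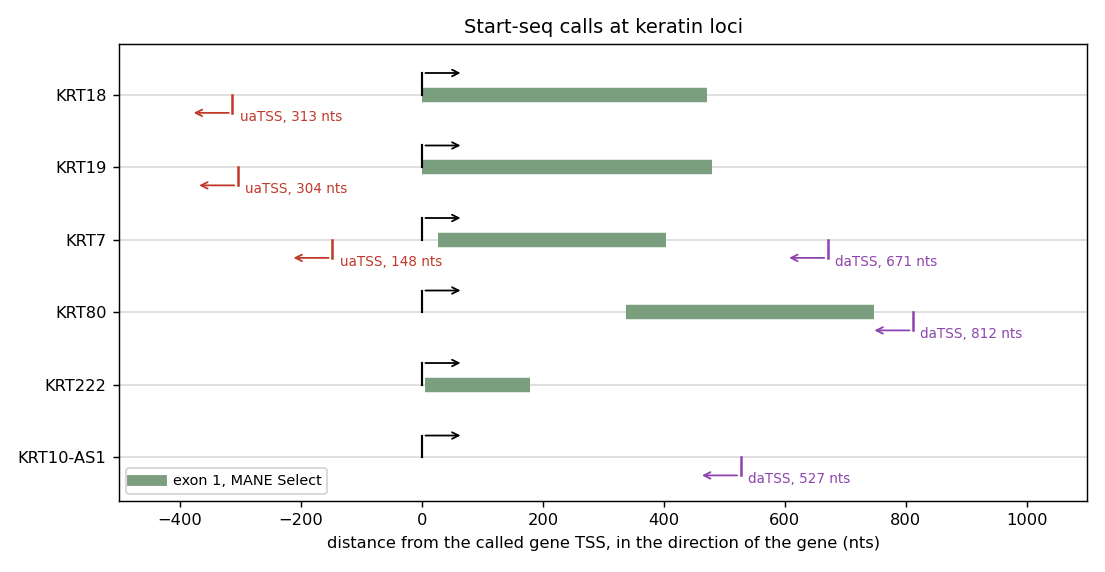
Calls at the 5 keratin gene TSSs and at KRT10-AS1, plotted by distance in nts from the called gene TSS, with the gene reading to the right. Black arrows are gene TSSs, red arrows uaTSSs, purple arrows daTSSs and green bars exon 1 of the MANE Select transcript, which begins 337 nts to the right of the call at KRT80; KRT10-AS1 has no such transcript.

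The uaTSS of KRT18 lay 313 nts upstream, at 53342589 on the minus strand, and that of KRT19 304 nts upstream, at 39684864 on the plus strand. Of all uaTSSs, 72.6% and 71.2%, respectively, lay closer to their gene TSS, and the median distance was 200 nts. KRT7 had its uaTSS 148 nts upstream, at 52626853. The minus-strand uaTSS of KRT18 is also on the strand of KRT8, and 7 KRT8 transcripts of the annotation run across it. Of the 18 annotated KRT8 transcripts, 8 start 658 to 836 nts downstream of the KRT18 gene TSS, inside the region searched for a daTSS, and the other 10 start elsewhere. By the study's methods a daTSS within 1000 nts of an annotated start on its strand was discarded, and the part of this filter in the absence of a daTSS at KRT18 was not tested.

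The uaTSSs of KRT18 and KRT19 are shown with both daTSSs, read 5′ to 3′ in the direction of antisense transcription, to show the letters at which antisense RNA began. Capitals mark -1 and +1.
KRT18 uaTSS (chr12:53342580-53342629, minus): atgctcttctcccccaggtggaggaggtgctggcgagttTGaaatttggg
KRT19 uaTSS (chr17:39684824-39684873, plus): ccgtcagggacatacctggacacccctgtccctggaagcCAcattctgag
KRT7 daTSS (chr12:52627663-52627712, minus): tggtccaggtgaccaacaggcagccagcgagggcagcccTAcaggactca
KRT80 daTSS (chr12:52585283-52585332, plus): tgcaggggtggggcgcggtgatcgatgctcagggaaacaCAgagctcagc

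Each of these 4 antisense calls had a pyrimidine and a purine at -1 and +1, and the uaTSS of KRT7 did not. These letters were present at 64.7% of all uaTSSs and 66.9% of all daTSSs. KRT18, KRT80 and KRT222 lacked these letters at their gene TSS. The daTSS of KRT7 lay 671 nts downstream, at 52627672, and that of KRT80 812 nts downstream, at 52585323, beyond 65.8% and 75.5% of all daTSSs, whose median distance was 507 nts. Both fell in intron 1 of the MANE Select transcript, since exon 1 ended 403 nts downstream of the gene TSS at KRT7 and 748 nts at KRT80.

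The sixth gene TSS lay inside the KRT10 locus on the opposite strand, at 38975433 on chromosome 17. It belongs to KRT10-AS1, the annotation's name for TMEM99, and was called 2 nts downstream of an annotated start of that gene. Its daTSS was called 527 nts downstream, at 38975960 on the minus strand. That position is within coding exon 6 of 8 of KRT10 and on the strand of KRT10, 2906 nts from its annotated start. A call in the sense direction of KRT10 was thus made inside the gene body while none was made at its promoter.

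Both keratin clusters contained stretches without any gene TSS. From the KRT7 gene TSS to that of KRT18, 716 kb on chromosome 12 held no gene TSS on either strand, against a median of 77.8 kb between neighbouring gene TSSs. Of the 10368 stretches between neighbouring gene TSSs, 8.78% were at least as long. The annotated starts of 24 keratins lie in this stretch. Of these, 21 were under 1 FPKM, 13 of them listed at 0, and the other 3 were KRT8, KRT81 and KRT86. On chromosome 17, 519 kb between the gene TSSs of KRTAP3-1 and KRT19 held 11 keratin starts, 10 of them under 1 FPKM and KRT15 at 2.51, and 12.4% of all stretches were at least as long. The same stretch held 30 keratin-associated protein genes, none above 0.0223 FPKM. Another 161 kb from KRT19 to EIF1 held KRT9, KRT14, KRT16 and KRT17, all under 1 FPKM. KRT23 and KRT10 started within the 190 kb between KRT10-AS1 and KRTAP3-1, and KRT24 within the 154 kb between KRT222 and KRT10-AS1. These last 3 stretches were of more common length, with 28.7% to 33.4% of all stretches at least as long.

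**Figure D3:**
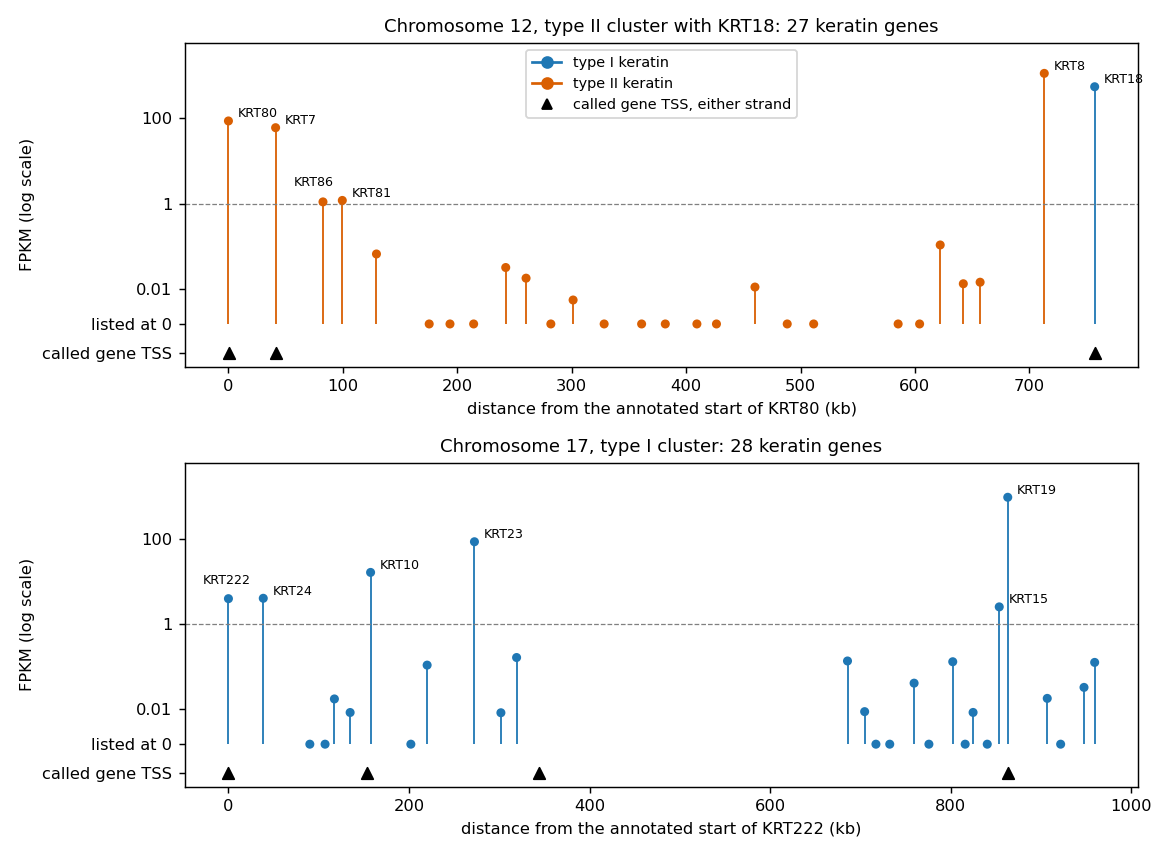
FPKM of 27 keratin genes on chromosome 12 and 28 on chromosome 17, on a log axis, by distance in kb from the annotated start of KRT80 and of KRT222. Triangles mark called gene TSSs on either strand; the keratins above 1 FPKM sit toward the ends of the chromosome 12 cluster and are spread along that of chromosome 17, and 716 kb between KRT7 and KRT18 hold no gene TSS.

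The core promoter letters were also read at the annotated starts of all 55 keratins, including those without a called gene TSS, using the MANE Select transcripts. At KRT86 this start, 52668429 on the plus strand, lay upstream of the locus listed with its FPKM, which begins at 52695649. The letters and composition read for KRT86 therefore need not be those of the transcript measured. TATAA or TATAT started between -35 and -24 at 32 of the 55 (58.2%), against 7.20% of 18922 protein-coding genes. Type I genes held it in 22 of 29 cases and type II genes in 10 of 26. By class it was present at 7 of 8 basal and activated keratins, 11 of 13 keratins of differentiated stratified epithelium, 9 of 17 hair keratins and 4 of 9 hair follicle sheath keratins. It was present at 1 of 5 simple epithelial keratins, KRT18, and at none of KRT23, KRT80 and KRT222. Among keratins under 1 FPKM the count was 28 of 43, and among those at or above 1 FPKM it was 4 of 12.

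The simple epithelial keratins without TATAA or TATAT held related letters. ATAAAAGGC lay within -40 and the 10th base at the annotated starts of KRT7, KRT8, KRT19, KRT20 and KRT26, that is at 5 of 55, against 0.280% of protein-coding genes. It started at -28 of KRT7, KRT19 and KRT20 and at -10 of KRT8, while at KRT26, a hair follicle sheath keratin listed at 0, it spanned the annotated start. Since these letters were chosen from KRT7, KRT8 and KRT19, only KRT20 and KRT26 were not used in choosing them. KRT10 is shown at its annotated start as a keratin above 1 FPKM that had TATAA and no gene TSS on its strand. Capitals mark TATAA with the overlapping TATAT and the bases at -1 and +1.
KRT10 (chr17:38978857-38978906, minus): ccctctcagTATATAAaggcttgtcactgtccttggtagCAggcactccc

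KRT8 had the shared letters closer to its start than KRT7 and KRT19 had. KRT10 had overlapping TATAT and TATAA at -31 and -29. KRT23 had neither pattern in this window. KRT24 and KRT15, the other type I keratins above 1 FPKM without a gene TSS, resembled KRT10, both with TATAT at -30 and TATAA at -28.

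Annotated starts of keratins were poorer in GC and CpG than those of other genes. Median GC content over 100 nts was 55% (35% to 75%) over the 55 keratins and 67.0% over protein-coding genes. The median CpG ratio over 500 nts was 0.286 against 0.782. The composition of a CpG island was found at KRT7, KRT18, KRT19, KRT72 and KRT81, that is at 5 of 55, against 68.8% of protein-coding genes. Of these, KRT7, KRT18 and KRT19 had a gene TSS and both KRT72, a hair follicle sheath keratin listed at 0, and KRT81 did not. KRT8, with a ratio of 0.405, and KRT23, with 0.287, were outside this composition and had no gene TSS, and KRT80, with 0.294 at its annotated start, was outside it and had one.

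**Figure D4:**
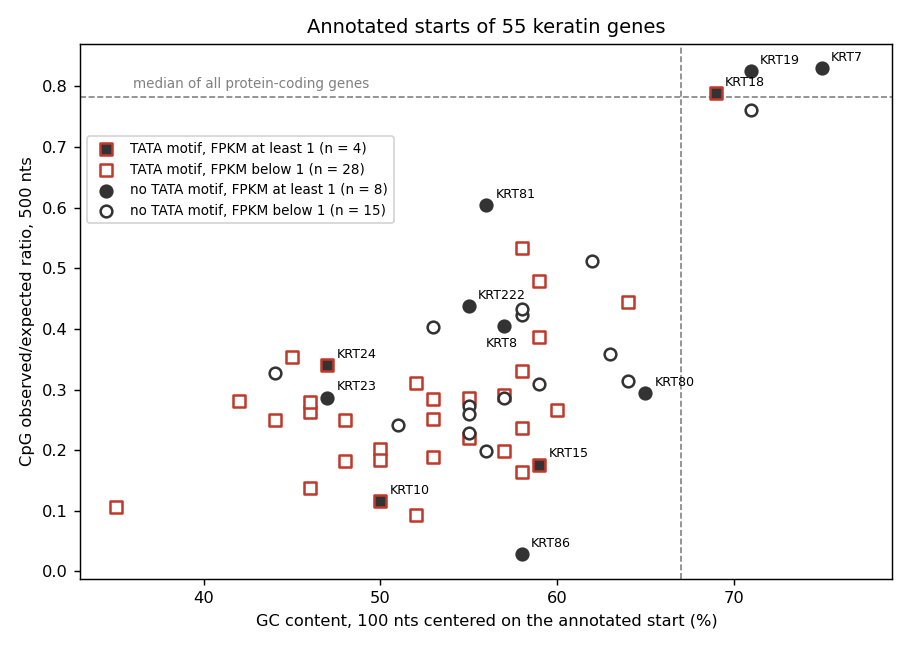
Observed to expected CpG ratio over 500 nts against GC content over 100 nts at the annotated starts of the 55 keratin genes. Squares with a red edge have the TATA motif (TATAA or TATAT from -35 to -24), filled points have at least 1 FPKM and dashed lines are the medians of protein-coding genes, 67.0% and 0.782; KRT7, KRT18 and KRT19 lie beyond both medians and all but KRT72 of the others below both.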

How the data were processed

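The authors filtered RNA-seq reads by a mean quality of at least 20, removed adapters with cutadapt 1.2.1, aligned with TopHat 2.0.4, removed duplicates with Picard, merged the 3 replicates and estimated FPKM with Cufflinks 2.2.1. The deposited table therefore holds 1 FPKM value per gene. Start-seq reads were aligned with Bowtie 0.12.8 to hg19 and TSSs were called at positions with at least 5 reads. The deposited calls have a score of 0 and no counts. The second Start-seq replicate and the chromatin assays (MNase-seq, FAIRE-seq) were left out. Keratin proteins were not analysed here. Some marker genes and promoter sequences are not reported here.

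Symbols were matched to GENCODE on GRCh37, which has the chromosome sequences of hg19, and 21813 of 26175 genes received a strand. Calls were joined by identifier. Named genes were all keratins with at least 1 FPKM or a gene TSS, the highest of other groups and the 3 highest of other lists. Members and lists were chosen with earlier results of these data known. Further keratins and list members named for their role or their sequence were chosen after their values were seen. The motif search and overlaps were tested on simulated sequences with Python 3.11.15, numpy 2.4.6 and pandas 2.3.3. Alternatives were other FPKM thresholds, a filter on values of 0, pseudocounts of 0.1 and 1, other windows and strands, other motif positions and annotated starts as +1.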

Additional observations from a re-analysis of the deposited data

How the results depend on the processing

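The count of keratins depended on the FPKM threshold, with 12 at or above 1, 7 at or above 10 and 18 at or above 0.1, and 11 at or above 1 without KRT222. The 5 keratins with a gene TSS became 7 when either strand was allowed and stayed 5 in number with windows of 500 or 2000 nts or by the nearest annotated start. Counts of uaTSSs (3), daTSSs (2) and TATAA or TATAT (1) at gene TSSs had the same values under each alternative run. For uaTSSs the alternative was a limit of 500 nts and for daTSSs a limit of 1000 nts. All keratin calls lay within these limits, so those counts could not change. The median keratin FPKM was 0.108 over genes listed above 0, and the median log2 value was -3.17 with a pseudocount of 0.1 and 0.02 with 1. GC content averaged 65.0% over 100 nts and 62.8% over 500 nts. The annotated start as +1, the 9 letters ATAAAAGGC and a wider span of motif positions at annotated starts, which also gave 32 keratins, were chosen after seeing the data. Leaving out replicates was not run because the values are merged. No paired analysis was possible because no file used here holds values per replicate.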
